A study of Mus musculus with 3 samples.

Results

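The cells described here are Il17a-negative, Cxcr3-negative gamma delta T cells of the mouse lung, 578 of the 3542 cells kept in 2 libraries and of the 5164 kept in all 3 libraries of the series. They were selected on measured transcripts: at least 2 UMIs (unique molecular identifiers, each standing for 1 captured RNA molecule) of Trdc, at least 1 UMI of Cd3e or Cd3d, at least 1 UMI of Tcrg-V6, Cd163l1 or Trdv4 (called the chain gate below), and 0 UMIs of both Il17a and Cxcr3. Cells entered with at least 500 detected genes and at most 10% mitochondrial UMIs. The cells came from lungs of GFI1B-GFP reporter mice, digested with collagenase III, DNase and Dispase; lymphocytes that were CD45+, lineage-negative, CD90.2+ and positive for IL-7R were sorted alive and profiled with 10x Genomics 3' chemistry. The labels give no age, sex, strain background, treatment or number of animals. The IL-18R+ pool combines both CD103+ GFP- and CD103- GFP+ sorts of IL-18R+ cells, which the files do not separate, and it held 232 members. Which antibodies made up the lineage gate is not stated, so whether it was meant to remove T cells is unknown here. The other library the rule names carries a label negative for IL-18R, CD103 and GFP alike, is called the negative-labelled library below, and held 346 members. The remaining library, IL-18R- ST2+, is not named in the rule and held 2 cells that met it. Each library is 1 group with no replicate, so no difference below was tested.

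Gamma delta T cells that carry the V gamma 6 receptor chain leave the thymus around birth and settle in lung, skin, uterus and other barrier tissues. They depend on the transcription factors Sox13 and Maf, respond quickly to IL-23 and IL-1, and are best known for releasing IL-17A, which draws neutrophils to the airways. Many such cells hold no IL-17 message at a given moment, although they keep the receptors and transcription factors of the type 17 lineage. CXCR3, the receptor for interferon-induced chemokines, marks T cells of a more type 1 character.

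Levels are given as UPM: the UMIs of a gene were summed over the cells of a group and scaled by the group's total UMIs in the manner of CPM. A 3' count does not grow with transcript length, but levels are compared here only within a gene. Intervals in parentheses are exact 95% limits that cover counting error only. They do not cover the variation between animals or libraries. Printed ratios use the observed sums, except that a sum of 0 UMIs is set to 3 and the ratio given as a lower bound. A gene was called higher or lower where its ratio reached 2 in both libraries, with sums under 3 UMIs raised to that floor, among genes with at least 20 UPM in either group of each library. Because the members were selected on transcripts of the same cells, every contrast of members with other cells is a description.

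Promoter sequences of 3 genes are shown because the results turn on them: Il17a sets the boundary of the population, Il17f is its neighbour on chromosome 1 and the called gene nearest to it in role, and Il23r encodes the receptor that acts upstream of both. Il17a lies at chr1:20730905-20734496 on the plus strand and Il17f at chr1:20777146-20790617 on the minus strand, both protein coding. The sequences are RefSeq promoters of build GRCm38.p6, written in the direction of the gene from 250 bases before to 50 bases after its start: chr1:20730655-20730954 (plus strand) for Il17a, chr1:20784221-20784520 (minus strand) for Il17f and chr6:67491806-67492105 (minus strand) for Il23r. Capitals mark AGGTCA, the half-site recognised by REV-ERB and some other nuclear receptors, or its reverse complement TGACCT.
Il17a: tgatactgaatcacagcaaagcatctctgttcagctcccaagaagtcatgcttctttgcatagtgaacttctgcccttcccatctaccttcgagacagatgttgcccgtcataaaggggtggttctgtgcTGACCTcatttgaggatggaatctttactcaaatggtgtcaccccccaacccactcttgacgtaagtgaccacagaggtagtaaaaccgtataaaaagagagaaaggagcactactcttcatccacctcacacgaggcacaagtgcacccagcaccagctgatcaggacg
Il17f: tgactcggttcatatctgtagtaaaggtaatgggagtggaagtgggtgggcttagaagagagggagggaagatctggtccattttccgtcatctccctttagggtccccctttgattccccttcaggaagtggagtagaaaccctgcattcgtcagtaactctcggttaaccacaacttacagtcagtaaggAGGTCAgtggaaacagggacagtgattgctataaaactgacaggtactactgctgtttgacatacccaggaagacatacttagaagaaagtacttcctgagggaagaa
Il23r: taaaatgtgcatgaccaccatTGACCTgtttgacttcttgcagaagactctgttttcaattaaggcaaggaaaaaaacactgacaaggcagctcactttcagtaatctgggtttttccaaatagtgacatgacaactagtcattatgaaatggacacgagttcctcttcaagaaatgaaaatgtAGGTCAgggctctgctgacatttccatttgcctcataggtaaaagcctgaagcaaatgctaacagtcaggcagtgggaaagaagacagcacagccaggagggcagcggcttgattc
The match in Il17a began at -120 relative to the start and the match in Il17f at -58, while Il23r had matches at -229 and -66. No match overlapped another. Of 15 genes looked up, 12 had a promoter in the table, and 5 of those 12 genes (41.7%) held the motif in at least 1 promoter, the others being Ccr6 at -44 and 1 of the Clock promoters at -119. No match lay in the windows of Il22, which was also called lower in members, or of Sox13, Nr1d1, Cd163l1, Areg, Il1r1 and Il17re. On either strand 5340 of all 32851 promoters (16.3%) held it. Counted in the same way, by promoter, it was held by 5 of the 16 promoters of the looked-up genes (31.2%). These letters describe the windows and were not used in any comparison.

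The 3 libraries held 1688, 1903 and 1760 barcodes, of which 1659, 1883 and 1622 were kept, with median UMIs per kept cell between 4568 and 4932. Members had a median of 4663 UMIs in the pool and 4344 in the negative-labelled library, against medians between 4430 and 5329 in the groups they are set beside, and summed to 1074740 and 1548504 UMIs. Median mitochondrial UMIs were 2.94% and 3.59%, and ribosomal protein genes took 23.95% and 23.89% of the members' UMIs in the same order of libraries. The pool and the negative-labelled library shared 1 kept barcode, which was not a member. The transcript Il18r1 was not low in the negative-labelled library, at 663 UPM in the pool, 591 UPM there and 16.1 UPM in the IL-18R- ST2+ library. Gfi1b had 0 UMIs in all 3. The labels name sorting gates for the protein while these values are RNA, so whether the sorted cells carried the IL-18R protein cannot be told from them. Among members Il18r1 stood at 836 UPM in the pool and 732 UPM in the negative-labelled library, with a UMI in 96.98% and 91.6% of cells, so members of both libraries carried it.

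Members made up 13.98% (12.3 to 15.8) of kept cells in the pool and 18.4% (16.6 to 20.2) in the negative-labelled library, shares that the sort gates can set. Gamma delta cells with an Il17a UMI were 27.9% and 26.4% of the same libraries, and Il17a-negative cells with a Cxcr3 UMI, with or without the chain gate, were 5.42% and 22.2%. The line between members and Il17a-positive cells moved with depth. Among gamma delta cells that passed the chain gate, 314 of 777 in the pool and 663 of 1160 in the negative-labelled library had no Il17a UMI. In 3 equal classes of these cells by depth, shallow to deep, the share with no Il17a UMI was 47.1%, 40.5% and 33.6% in the pool and 60.7%, 57.4% and 53.4% in the negative-labelled library. A member is therefore a cell in which Il17a was not detected at this depth. Cells with no Cd3e, Cd3d or Trdc UMI, held an Il17a UMI in 9 of 395 cases in the pool and 8 of 211 cases in the negative-labelled library.

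The genes used for selection are described first. Cd163l1, a scavenger receptor of gamma delta T cells, had a UMI in 96.98% of members of the pool and 95.95% of members of the negative-labelled library. Trdv4, the delta variable segment that pairs with the V gamma 6 chain, had one in 87.9% and 92.5%, and Tcrg-V6 itself in 47.8% and 48.3%. All 3 were found together in 45.3% and 45.7% of members. A UMI of Tcrg-V4 or Tcrg-V1, other gamma variable segments, was present in 9.05% and 10.4%. These genes lie at chr14:54142851-54148868 (Trdc), chr13:19190356-19190929 (Tcrg-V6), chr14:54074905-54075515 (Trdv4) and chr7:140218267-140231145 (Cd163l1), all on the plus strand. Values near the thresholds are given once here. Members with exactly 2 Trdc UMIs numbered 6 in each library, against 7 and 9 excluded cells with 1 Trdc UMI. Members with 1 chain-gate UMI numbered 8 and 10, against 72 and 197 cells excluded at 0. The 10 in the negative-labelled library had Sox13 at 0 and Ccl5 at 4715 UPM, beside the 197 excluded cells at 6.32 and 7732 UPM. Cells just outside on Il17a, with 1 UMI, numbered 64 and 73 and had Sox13 at 142 and 128 UPM. Cells just outside on Cxcr3, with 1 UMI, numbered 46 and 187 and had Sox13 at 126 and 108 UPM.

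Sox13 and Nr1d1, which the rule did not name, were checked as markers. Sox13, a transcription factor of type 17 gamma delta cells at chr1:133382303-133424377 (minus strand), stood at 135 UPM in members and 10.8 UPM in cells outside every gamma delta group of the pool, and at 127 UPM in members and 3.99 UPM in outside cells of the negative-labelled library. It had a UMI in 45.3% and 41.9% of members, against 2.53% and 0.948% of cells with no Cd3e, Cd3d or Trdc UMI, whose median depths were 5422 and 4804 UMIs. Nr1d1, which encodes the clock repressor REV-ERB alpha at chr11:98767932-98775333 (minus strand), had a UMI in 23.7% and 22.8% of members, against 8.35% and 11.8% of those cells. Both markers thus had a UMI in a larger share of members than of cells lacking these T cell transcripts, in each library. The gamma delta name fits these markers, while Nr1d1 was shared with other cells and marks no cell type.

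Markers of other cell types were low in members, with exceptions. Of 9 myeloid genes 6 were at 0 in members of the pool and 5 in members of the negative-labelled library, and their summed level was 6.51 and 6.46 UPM in members against 1669 and 568 UPM in all other kept cells. Mast cell and basophil genes had 0 UMIs in members, and the ILC2 genes Il1rl1, Il5, Il13 and Ccl1 were at 0 in members of both libraries. All 11 ILC2 genes together summed to 237 and 258 UPM in members against 639 and 356 UPM in other cells. Summed B cell genes stood at 92.1 and 89.8 UPM in members against 238 and 112 UPM in other cells, genes of stroma, endothelium and epithelium at 27.0 and 51.0 UPM against 788 and 64.1 UPM, and platelet and erythroid genes at 6.51 and 0.646 UPM against 6.81 and 1.10 UPM. Summed ILC3 genes were 1017 and 1080 UPM in members against 1068 and 1042 UPM in other cells. Cycling genes summed to 255.9 and 167 UPM in members against 614 and 263 UPM in other cells. ILC1 and NK genes summed to 200.0 UPM in members of the pool and 1038 UPM in members of the negative-labelled library, against 848 and 3586 UPM in other cells. Their part in the results below was not tested beyond leaving out members with a Ccl5 UMI. Of the alpha beta T cell genes Cd4 and Foxp3 were at 0, Trac was found in 17.2% and 12.7% of members, and Trbc2 in 89.7% and 91.0%. The whole list summed to 1477 and 1531 UPM in members against 1708 and 1547 UPM in other cells. A doublet caller marked 4 of 1659 and 18 of 1883 cells, none of them members.

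Against cells outside every gamma delta group (795 cells of the pool and 419 of the negative-labelled library), members held many type 17 genes at higher levels and Il22 at a lower level. Among these outside cells 425 and 225 had no Cd3e or Cd3d UMI. The other 370 and 194 had such a UMI but fewer than 2 Trdc UMIs, so the contrast is not one with T cells alone. Of 5649 genes 117 (2.07%) were called higher in members and 231 (4.09%) lower. Of 30 type 17 identity genes 12 were higher, of which Cd163l1 was used by the rule, and 2 lower, with median log2 ratios, the rule's genes left out, of 0.75 in the pool and 1.14 in the negative-labelled library, beside medians over all genes of -0.02 and 0.04. Maf, a transcription factor of the lineage, was among the 12, at 828 UPM in members and 366 UPM in outside cells of the pool (2.26-fold, 2.08 to 2.45), and at 889 UPM in members and 384 UPM in outside cells of the negative-labelled library (2.32-fold, 2.13 to 2.52). It was thus more than 2-fold above outside cells in cells where Il17a was not detected.

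Receptors of the IL-23, IL-1, IL-17C and IL-12 families were among the genes called higher, and Il23r, Il1r1 and Il17re are on the type 17 list too. Il23r, the receptor subunit specific to IL-23, was at 155 UPM in members and 41.3 UPM in outside cells of the pool (3.76-fold, 3.04 to 4.64), and at 144 UPM in members and 28.8 UPM in outside cells of the negative-labelled library (4.99-fold, 3.77 to 6.69). Il1r1, the signalling receptor of IL-1, was at 222 UPM in members and 53.0 UPM in outside cells of the pool, and at 162 and 36.8 UPM in members and outside cells of the negative-labelled library. Il17re, a receptor subunit for IL-17C, had ratios of 2.99 and 2.72, and Il12rb1, the subunit shared by the IL-12 and IL-23 receptors, 2.21 and 2.87. Of 20 cytokine receptor genes 4 were called higher and 2 lower, the lower ones being Il17rb and Acvr2a. Blk, a kinase used by IL-17-producing gamma delta cells, was at 421 UPM in members and 67.5 UPM in outside cells of the pool, and at 308 UPM in members and 16.0 UPM in outside cells of the negative-labelled library. The T cell kinase gene Lck lay the other way, at 8.37 UPM in members and 90.8 UPM in outside cells of the pool, and at 24.5 and 121 UPM in members and outside cells of the negative-labelled library. Of 18 CD3 and proximal signalling genes 6 were higher (2 of them, Cd3e and Cd3d, set by the rule) and 4 lower, namely Lck, Cd2, Cd28 and Themis.

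**Figure D1:**
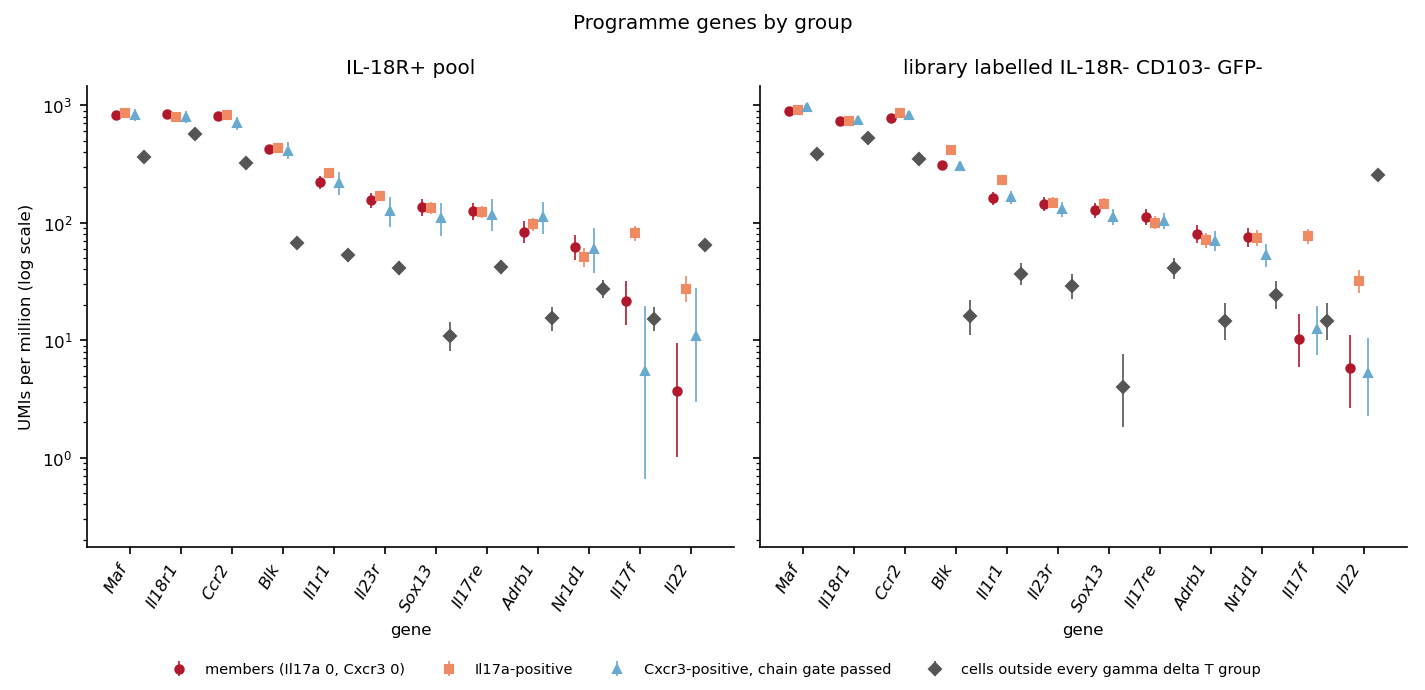
Level of 12 genes in UPM on a log scale (vertical axis) in members, Il17a-positive gamma delta cells, Cxcr3-positive cells that pass the chain gate, and cells outside every gamma delta group, for each library; points are summed levels and bars 95% Poisson limits. Maf, Il23r and Sox13 lie at like levels in the 3 gamma delta groups and lower in outside cells, while Il17f and Il22 are lower in members than in Il17a-positive cells (Il17f at 21.4 and 10.3 UPM in members, against 81.7 and 76.7 UPM).

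Some homing, clock and adrenergic receptor genes also differed by the size rule. Cxcr6 and Ccr2, receptors that place lymphocytes in tissue, had ratios of 2.57 and 2.37 and of 2.51 and 2.21 over outside cells, while S1pr1, which leads cells out of tissue, stood at 22.3 UPM in members and 160 UPM in outside cells of the pool, and at 54.9 and 183 UPM in members and outside cells of the negative-labelled library. Of 23 homing and residency genes 2 were higher and 3 lower, of which Cxcr3 was fixed at 0 by the rule, and of 27 quiescence and naive genes 0 were higher and 6 lower, Klf2, Klf3, Bach2, Ccr7 and S1pr1 among them. Klf2, which keeps T cells circulating, was at 134 UPM in members and 336 UPM in outside cells of the pool, and at 111 and 357 UPM in members and outside cells of the negative-labelled library. The other 21 of the 27 were not called, and the medians of that list were -0.19 and -0.52. Of 13 clock genes 2 were higher and 1 lower, with medians of 0.33 and 0.31. Nr1d1 was at 62.3 UPM in members and 27.2 UPM in outside cells of the pool (2.29-fold, 1.68 to 3.10), and at 74.9 UPM in members and 24.4 UPM in outside cells of the negative-labelled library (3.07-fold, 2.21 to 4.31). Clock, which encodes an activator of the same loop, had ratios of 2.21 and 2.31, and Hlf was the gene called lower. Adrb1, a receptor for noradrenaline, stood at 83.7 UPM in members and 15.4 UPM in outside cells of the pool, and at 80.7 and 14.6 UPM in members and outside cells of the negative-labelled library. Il17a-positive gamma delta cells held Adrb1 at 96.7 and 70.7 UPM, so it was not particular to members. Members also held Ramp1, a subunit of the receptor for the neuropeptide CGRP, at 897 and 743 UPM, against 534 and 545 UPM in outside cells, which did not reach the 2-fold rule. Calcrl, the other subunit of that receptor, was lower, at 2.79 UPM (3 UMIs) and 9.69 UPM in members against 99.9 and 46.1 UPM in outside cells. Of 6 neuropeptide and adrenergic receptor genes 1 was higher (Adrb1) and 1 lower (Calcrl).

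Several effector messages lay the other way. Of 11 secreted cytokine genes 1 was higher in members, Tnf, and 6 were lower, of which Il17a was fixed at 0 by the rule. Il22 was at 3.72 UPM in members and 65.2 UPM in outside cells of the pool, and at 5.81 and 255.5 UPM in members and outside cells of the negative-labelled library. Areg, the tissue repair factor amphiregulin, was at 75.4 UPM in members and 331 UPM in outside cells of the pool, and at 81.4 and 269 UPM in members and outside cells of the negative-labelled library. Tnf, an inflammatory cytokine, was at 112 UPM in members and 44.9 UPM in outside cells of the pool, and at 146 and 51.5 UPM in members and outside cells of the negative-labelled library. It was not particular to members. Classes of gated gamma delta cells with an Il17a UMI and no Cxcr3 UMI held Tnf at 106.6 to 127.4 UPM in the pool. In the negative-labelled library such classes held it at 134.5 to 170.2 UPM. Of 27 immediate early genes 1, Irf4, was higher and 2, Egr3 and Ier3, were lower. The heat shock gene Hspa1b had ratios of 5.64 and 2.53 and was the 1 gene called of the 10 on its list; it is nearly identical to Hspa1a, so reads may be split between the pair. Genes of the lists for ILC1 and NK (6 of 7), ILC2 (3 of 5), ILC3 (4 of 8) and myeloid cells (4 of 4) were lower, among them the stem cell factor receptor Kit, with 1 and 2 UMIs in members. Cdh10, an adhesion molecule that no list held and that was chosen after its values were seen, was at 51.2 UPM in members and 4.78 UPM in outside cells of the pool, and at 43.9 and 3.99 UPM in members and outside cells of the negative-labelled library.

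**Figure D2:**
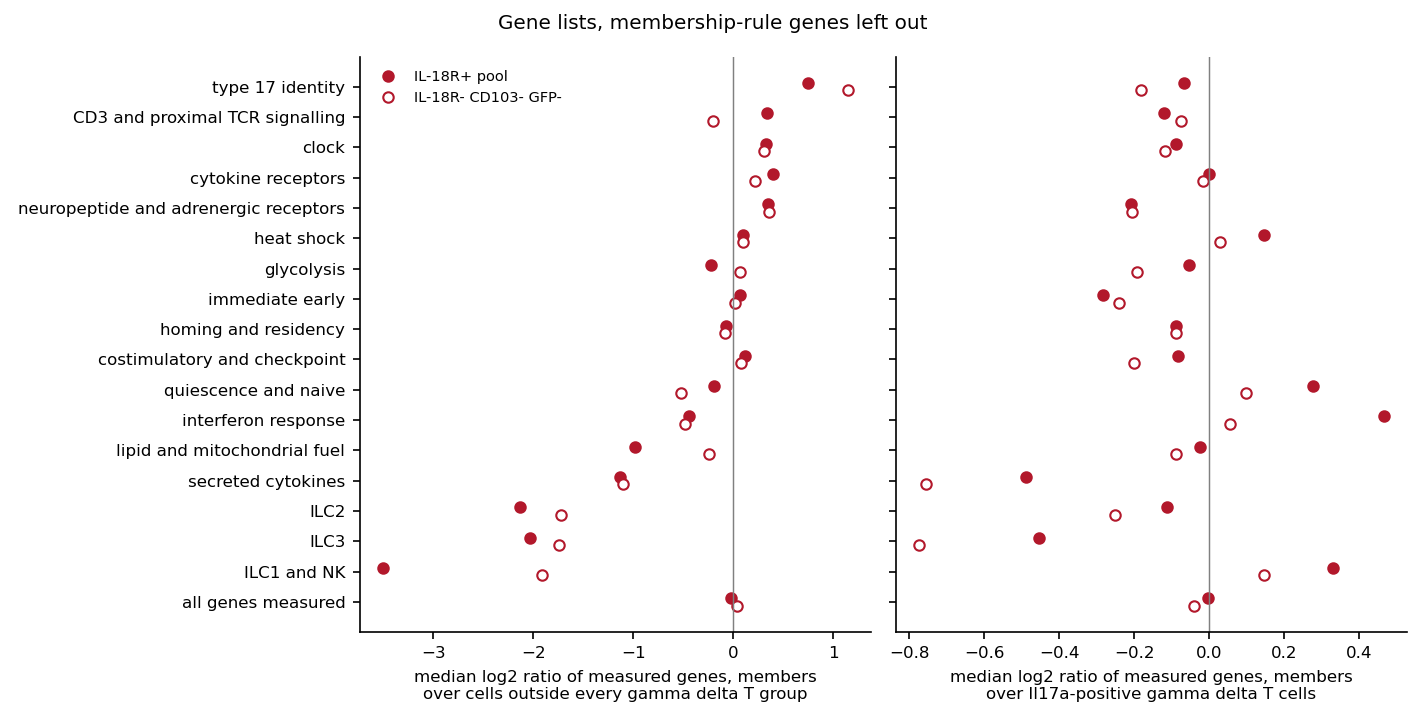
Median log2 ratio of each gene list (horizontal axis) with the rule's genes left out, members over cells outside every gamma delta group at left and members over Il17a-positive gamma delta cells at right; filled points are the IL-18R+ pool and open points the negative-labelled library (IL-18R- CD103- GFP-). The type 17 identity list lies at 0.75 and 1.14 at left and at -0.07 and -0.18 at right, and the immediate early list at -0.28 and -0.24 at right.

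Against all other kept cells, 1427 in the pool and 1537 in the negative-labelled library, most of these differences were smaller, since many of the other cells were gamma delta cells too. Of 5480 genes 1 (0.0182%) was called higher in members and 70 (1.28%) lower. The gene called higher was Hacd4, a fatty acid elongation enzyme, at 43.7 UPM in members and 21.2 UPM in other cells of the pool (2.06-fold, 1.46 to 2.87), and at 36.2 UPM in members and 17.7 UPM in other cells of the negative-labelled library (2.05-fold, 1.48 to 2.81). This call was lost under TMM and median of ratios scaling, with thinned cells and with cells weighted equally. Of 28 type 17 identity genes 0 were called higher and 1 lower, although 21 lay above a ratio of 1 in both libraries, with medians of 0.43 and 0.54 without the rule's gene beside -0.00 and 0.05 over all genes. Sox13 was at 135 UPM in members and 54.6 UPM in other cells of the pool (2.47-fold, 2.03 to 2.99), and at 127 UPM in members and 65.7 UPM in other cells of the negative-labelled library (1.94-fold, 1.64 to 2.28). Il23r had ratios of 1.83 and 1.85, Nr1d1 1.74 and 1.90, Clock 1.70 and 1.73 and Adrb1 1.91 and 2.12. No clock gene of 13 was called.

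Of the genes lower in members than in all other kept cells, those with the largest ratios are described. Myeloid genes had some of the largest ratios. They included the neutrophil alarmin gene S100a9, with 1 UMI in the members of each library against 561 and 257 UPM in other cells (603-fold lower, 108 to 23810, and 398-fold lower, 71.4 to 15730), and S100a8, with 1 and 0 UMIs against 439 and 173 UPM. Lyz2, the lysozyme of macrophages, had 0 and 1 UMI in members against 581 and 115 UPM in other cells, at least 208-fold lower in the pool. Nrgn had 0 UMIs in members of both libraries against 86.6 and 75.9 UPM in other cells, at least 31.0-fold and 39.2-fold lower. The signalling adaptors Fcer1g and Tyrobp, used by NK and myeloid cells, had 0 UMIs in members of the pool against 247 and 224 UPM in its other cells. In the negative-labelled library Fcer1g was at 5.81 UPM in members and 157 UPM in other cells, and Tyrobp at 1.94 UPM in members and 50.7 UPM in other cells. The antigen presentation gene Cd74 was 72.0-fold and 27.6-fold lower, the second ratio from 3 UMIs (9.38 to 134), and the tetraspanin gene Cd9 37.5-fold and 22.0-fold lower. Of 3 measured genes of the myeloid list all 3 were lower.

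A further set of lower genes belonged to other lymphocytes. Ctla2a, a protease inhibitor of activated lymphocytes, was at 29.8 UPM in members and 529 UPM in other cells of the pool, and at 84.6 and 393 UPM in members and other cells of the negative-labelled library. Its near copy Ctla2b, between which and Ctla2a reads may be split, had 0 UMIs in members of the pool against 67.1 UPM in other cells, and 6.46 against 54.8 UPM in the negative-labelled library. The interferon-induced gene Ifi27l2a was 27.4-fold and 8.45-fold lower. Ccl5, a chemokine of cytotoxic and memory T cells, was at 1.86 UPM (2 UMIs) in members and 275 UPM in other cells of the pool (148-fold lower, 40.8 to 1219), and at 598 UPM in members and 2617 UPM in other cells of the negative-labelled library (4.38-fold lower, 4.10 to 4.68). Members of the pool were thus nearly free of Ccl5 and members of the negative-labelled library were not. Among immediate early genes Jun was at 1086 UPM in members and 716 UPM in other cells of the pool, and at 785 and 542 UPM in members and other cells of the negative-labelled library, so members were not low in every activation-linked message.

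Members and Il17a-positive gamma delta cells (463 in the pool, 497 in the negative-labelled library) differed by the size rule in few genes. Ribosomal protein genes took 23.95% and 23.89% of UMIs in members, against 22.35% and 21.19% in Il17a-positive cells, and their part in the results was not tested. Of 5424 genes 1 (0.0184%) was called higher in members and 4 (0.0737%) lower, and of the 4, Il17a and Cxcr3 were fixed at 0 by the rule. The other two were Il17f and Il22. Il17f was at 21.4 UPM in members and 81.7 UPM in Il17a-positive cells of the pool (3.82-fold lower, 2.47 to 6.17), and at 10.3 UPM in members and 76.7 UPM in Il17a-positive cells of the negative-labelled library (7.42-fold lower, 4.45 to 13.3). Il22 was at 3.72 UPM in members and 27.4 UPM in Il17a-positive cells of the pool, and at 5.81 and 31.8 UPM in members and Il17a-positive cells of the negative-labelled library, on 4 and 9 UMIs in members. Cytokine messages of type 17 cells other than Il17a were thus low too. An Il17f UMI was found in 6.03% of members of the pool, above the 1.52% of cells with no Cd3e, Cd3d or Trdc UMI. In the negative-labelled library it was found in 2.60% of members, not above the 4.27% of such cells there. Il17f in those members thus cannot be told from that level. Such cells include innate lymphocytes, so their share is not a measure of background. Ms4a4b, a membrane protein of naive and type 1 T cells, was the gene called higher, at 36.3 UPM in members and 18.1 UPM in Il17a-positive cells of the pool, and at 187 and 34.7 UPM in members and Il17a-positive cells of the negative-labelled library. Its ratio in the pool, 2.00 (1.26 to 3.18), lay at the threshold, and the call was lost under TMM scaling and without members that held a Ccl5 UMI.

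No lineage gene reached the size rule between members and Il17a-positive cells. Of 27 type 17 identity genes 0 were called in either direction, 4 lay above and 19 below a ratio of 1 in both libraries, and the medians without the rule's gene were -0.07 and -0.18 beside -0.00 and -0.04 over all genes. Maf was at 828 UPM in members and 862 UPM in Il17a-positive cells of the pool (ratio 0.960, 0.886 to 1.04), and at 889 UPM in members and 919 UPM in Il17a-positive cells of the negative-labelled library (0.967, 0.903 to 1.03). Sox13 had ratios of 1.01 (0.821 to 1.23) and 0.878 (0.733 to 1.05) and Il23r of 0.916 (0.759 to 1.10) and 0.974 (0.820 to 1.16). Counted per cell after each cell was thinned to 2000 UMIs, a median of 12 and 11 of 29 type 17 genes had a UMI in members, 12 and 12 in Il17a-positive cells and 8 and 8 in outside cells. Without thinning the medians were 17 and 16 in members, 17 and 17 in Il17a-positive cells, and 12 and 11 in outside cells, with 2 and 6 members too shallow to be thinned. The IL-1 receptor gene Il1r1 was at 222 UPM in members and 267 UPM in Il17a-positive cells of the pool, and at 162 and 233 UPM in members and Il17a-positive cells of the negative-labelled library. Of 13 clock genes 0 were called, and Nr1d1 had ratios of 1.23 (0.894 to 1.67) and 1.01 (0.792 to 1.28).

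No immediate early gene reached the size rule. Of 25 such genes 0 were called, 2 lay above and 19 below a ratio of 1 in both libraries, with medians of -0.28 and -0.24, beside 1346 above and 1718 below among all 5424 genes. Junb, an AP-1 subunit, was at 5312 UPM in members and 6686 UPM in Il17a-positive cells of the pool (ratio 0.794, 0.770 to 0.819), and at 4926 UPM in members and 5815 UPM in Il17a-positive cells of the negative-labelled library (0.847, 0.824 to 0.871). Gadd45b, a stress and cytokine response gene, was at 936 UPM in members and 1353 UPM in Il17a-positive cells of the pool, and at 908 and 1210 UPM in members and Il17a-positive cells of the negative-labelled library. Both values lay below those of Il17a-positive cells by more than counting error in each library. Of 10 secreted cytokine genes 3 were lower and 9 lay below a ratio of 1 in both libraries, Il17a by the rule among both counts. Areg was at 75.4 UPM in members and 129 UPM in Il17a-positive cells of the pool, and at 81.4 and 156 UPM in members and Il17a-positive cells of the negative-labelled library. Csf2, the growth factor GM-CSF, had ratios of 0.702 (0.380 to 1.24) and 0.261 (0.149 to 0.434). The second ratio rested largely on 58 UMIs in 63 cells with 5 to 9 Il17a UMIs and no Cxcr3 UMI. Such cells with 1, 2 to 4 and 10 or more Il17a UMIs held 5, 12 and 11 Csf2 UMIs there, and members 18. The checkpoint receptor gene Pdcd1 was at 176 and 224 UPM in members, against 255.7 and 320 UPM in Il17a-positive cells. Txnip, which restrains glucose uptake, lay the other way, with ratios of 1.42 (1.24 to 1.62) and 1.29 (1.13 to 1.48). Of 23 quiescence and naive genes 0 were called, 14 lay above a ratio of 1 and 4 below it in both libraries, with medians of 0.28 and 0.10, and of 10 interferon response genes 6 lay above and 0 below, with medians of 0.47 and 0.06.

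**Figure D3:**
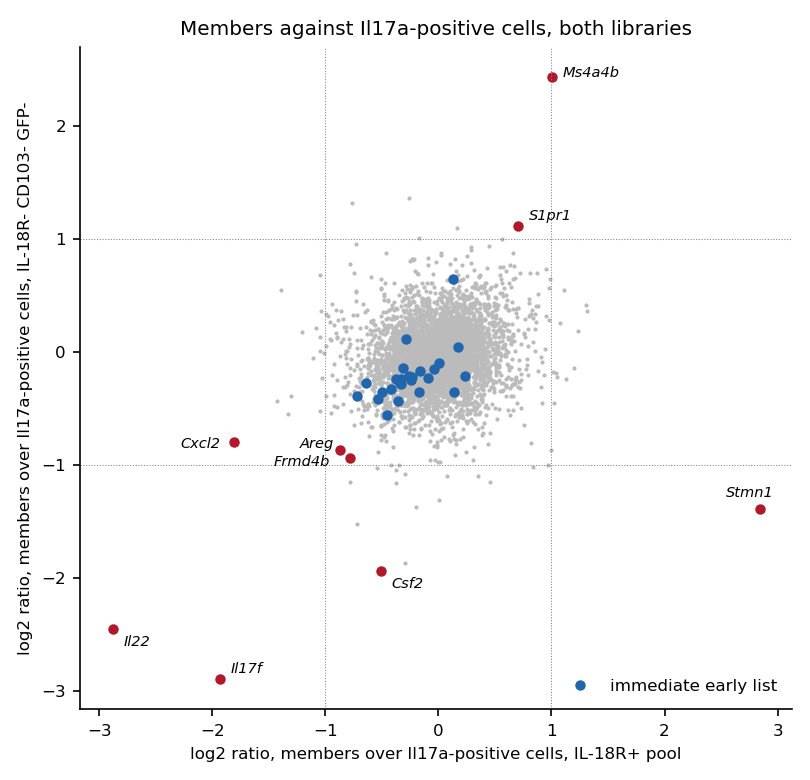
Log2 ratio of members over Il17a-positive gamma delta cells for each measured gene in the IL-18R+ pool (horizontal axis) and the negative-labelled library (IL-18R- CD103- GFP-) (vertical axis), with immediate early genes in blue and Il17a and Cxcr3 left out. Il17f and Il22 are the genes more than 2-fold lower in both libraries, the immediate early genes sit mostly below 0 on both axes, and Stmn1 lies at 2.84 in the pool and -1.39 in the other library.

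Gamma delta cells that passed the chain gate and had no Cxcr3 UMI were sorted by their number of Il17a UMIs. Members were the low end of a range in summed immediate early genes, though not in each such gene. In the pool 232 members with 0 Il17a UMIs stood beside 64, 112, 110 and 118 cells with 1, 2 to 4, 5 to 9 and 10 or more, and in the negative-labelled library 346 members stood beside 73, 92, 63 and 91 cells. Summed immediate early genes were at 18360, 18520, 20210, 22600 and 24850 UPM across these classes in the pool. In the negative-labelled library they were at 17400, 18310, 18980, 20660 and 22640 UPM. Members thus had the lowest sum in both libraries, and cells with 1 Il17a UMI lay next to them. Junb followed the same order in both libraries, at 5312 UPM in members and 7708 UPM in cells with 10 or more in the pool, and at 4926 UPM in members and 6422 UPM in such cells of the negative-labelled library. Fos and Nr4a1 did not follow it. In the pool Fos was at 1277 UPM in members, 1160 UPM at 2 to 4 Il17a UMIs and 1422 UPM at 10 or more. In the negative-labelled library Nr4a1 was at 511.5 UPM in members, 463.4 UPM at 2 to 4 and 950.9 UPM at 10 or more. Txnip was highest in members, at 349 UPM against 294, 275, 232 and 225 UPM in the higher classes of the pool, and at 265 UPM against 202, 225, 177 and 176 UPM in those of the negative-labelled library. Summed type 17 identity genes were at 11720 UPM in members and 11990, 12280, 12420 and 11920 UPM in the higher classes of the pool, and at 10660 UPM in members and 11430, 12300, 12250 and 11930 UPM in those of the negative-labelled library. Median depth ranged over the classes between 4434 and 4833 UMIs in the pool and between 4343 and 4702 UMIs in the negative-labelled library, and was highest in the class with 10 or more Il17a UMIs in both.

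**Figure D4:**
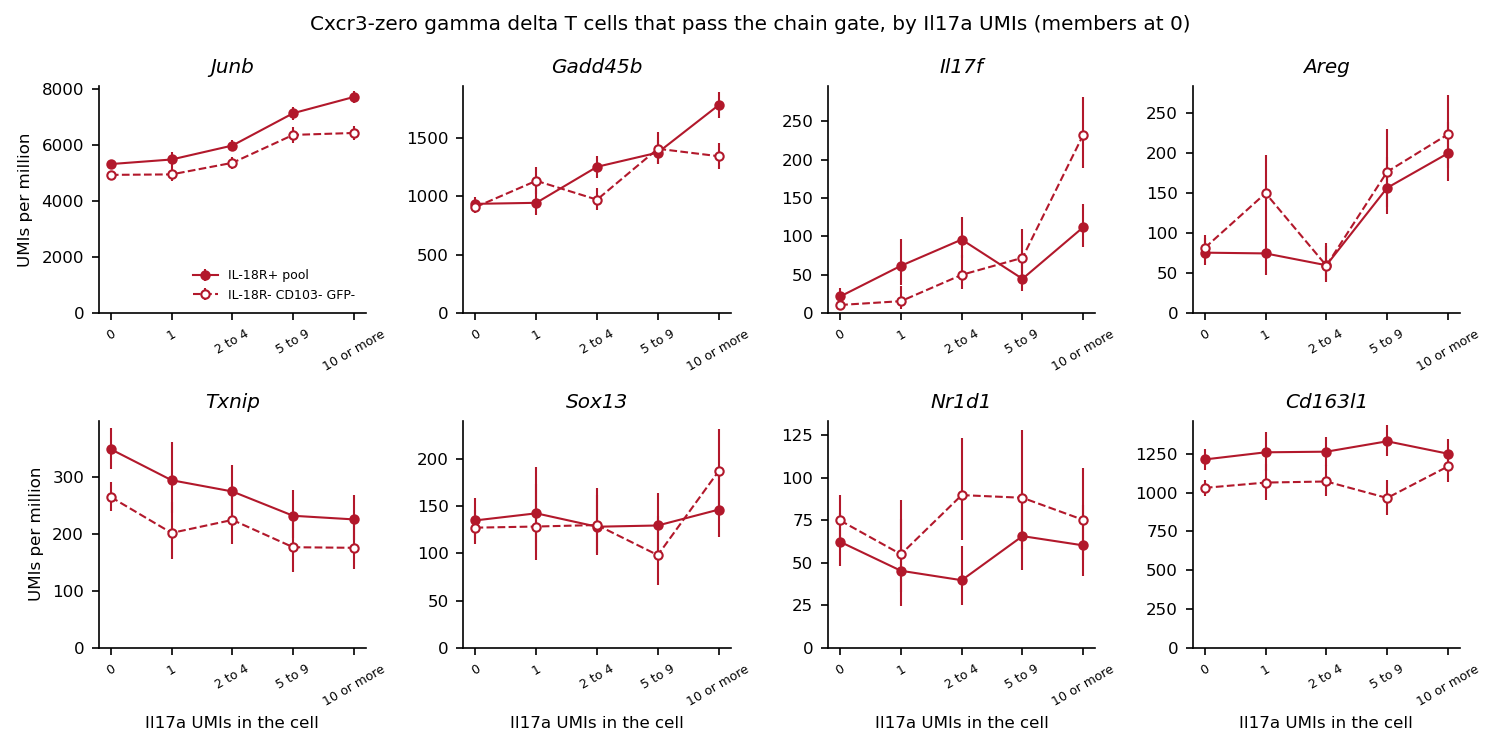
Level of 8 genes in UPM (vertical axes) by the number of Il17a UMIs in the cell (horizontal axis, members at 0) for both libraries; points are summed levels and bars 95% Poisson limits. Junb and Gadd45b are lowest in members and Txnip highest in both libraries, and Sox13 lies between 128 and 146 UPM in the pool and between 98.1 and 187 UPM in the other library.

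Set beside Cxcr3-positive, Il17a-negative gamma delta cells (90 in the pool, 419 in the negative-labelled library), members had fewer cytotoxic and type 1 messages. Of 5391 genes 2 (0.0371%) were called higher in members and 17 (0.315%) lower, Cxcr3 itself among the 17. Nkg7, a granule protein of cytotoxic lymphocytes, was at 14.0 UPM in members and 66.96 UPM in Cxcr3-positive cells of the pool, and at 92.3 and 271 UPM in members and Cxcr3-positive cells of the negative-labelled library. Ctla2a was at 29.8 UPM in members and 215 UPM in Cxcr3-positive cells of the pool, and at 84.6 and 238 UPM in members and Cxcr3-positive cells of the negative-labelled library. Bcl2l11, which encodes the death-promoting protein BIM, had ratios of 0.454 (0.294 to 0.703) and 0.456 (0.366 to 0.563). The NK receptor gene Klrd1 and the memory marker Ly6c2 were also lower. The 2 higher genes, Rapsn and Txnrd2, were chosen here after their values were seen and rested on 5 UMIs each in the Cxcr3-positive cells of the pool.

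Most of these calls depended on the chain gate, which members had to pass and Cxcr3-positive cells did not. With the gate applied to both sides, 82 Cxcr3-positive cells remained in the pool and 317 in the negative-labelled library. Of 5409 genes 1 (0.0185%), Rapsn, was then called higher in members and 5 (0.0924%) lower, namely Cxcr3, Ankmy2, Dhrs1, Rhoc and Serpina3f. Ctla2a turned to 29.8 UPM in members and 21.8 UPM in gated Cxcr3-positive cells of the pool, and to 84.6 and 65.8 UPM in members and gated Cxcr3-positive cells of the negative-labelled library, and Nkg7, then below the minimum level, turned with it, at log2 ratios of 0.36 and 0.14. The 3 ILC1 and NK genes still measured all lay below a ratio of 1 in both libraries, with median log2 ratios of -1.65 and -0.58, and none was called. Bcl2l11 kept its level in the pool, at 45.6 UPM in members and 101 UPM in gated Cxcr3-positive cells, and had a ratio of 0.842 (0.650 to 1.09) in the negative-labelled library. Maf had ratios of 1.01 (0.882 to 1.15) and 0.918 (0.852 to 0.989). Type 17 genes called in this comparison numbered 0 of 27, and Nr1d1 had ratios of 1.04 (0.634 to 1.77) and 1.42 (1.06 to 1.92).

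Members of the pool and members of the negative-labelled library shared their lineage genes and differed in an integrin, in chemokine receptors and in a group of cytotoxic genes. Of 5794 genes 61 (1.05%) were called higher in members of the pool and 79 (1.36%) lower. Cxcr6 had a ratio of 1.00 (0.924 to 1.08), Ccr2 of 1.03 (0.946 to 1.13), Sox13 of 1.06 (0.850 to 1.32) and Il23r of 1.08 (0.878 to 1.33). Blk had a ratio of 1.37 (1.20 to 1.56). Itgae, which encodes CD103, was at 147 UPM in members of the pool and 5.81 UPM in members of the negative-labelled library (25.3-fold, 12.99 to 56.3), a gene that the sort gates act on. Ccr6, the receptor for CCL20, was at 53.0 UPM in members of the pool and 7.10 UPM in members of the negative-labelled library (7.47-fold, 3.88 to 15.8), and Ccr9, a gut-homing receptor, at 26.1 and 7.10 UPM in members of the same libraries. Sdc1, the proteoglycan syndecan-1 of IL-17-producing gamma delta cells, was at 124 UPM in members of the pool and 55.5 UPM in members of the negative-labelled library. The splicing regulator Srek1 was 2.33-fold higher, the thyroid hormone receptor Thra 2.16-fold and the DNA repair gene Faap20 2.04-fold. Il17f, at 21.4 and 10.3 UPM, was called higher in members of the pool on 23 and 16 UMIs (2.07-fold, 1.05 to 4.19), a call that was lost without members holding a Ccl5 UMI, at 1.98-fold.

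On the lower side stood a set of genes of cytotoxic and memory T cells. Ccl5 was at 1.86 UPM in members of the pool and 598 UPM in members of the negative-labelled library (321-fold lower, 88.7 to 2657, on 2 UMIs in members of the pool), and Ly6c2 had 0 UMIs in members of the pool against 80.7 UPM (at least 28.9-fold lower). Gramd3 was 13.1-fold lower, Klrd1 7.37-fold, Nkg7 6.62-fold and Ms4a4b 5.16-fold. Cxcl10, an interferon-induced ligand of CXCR3, was at 15.8 UPM in members of the pool and 82.7 UPM in members of the negative-labelled library. Itga1, the collagen-binding integrin CD49a, was 2.88-fold lower, Ctla2a 2.84-fold, Ms4a6b 2.75-fold, the lysosomal trafficking gene Lyst 2.61-fold and the adhesion gene Cd2 2.51-fold. Of 7 ILC1 and NK genes 6 were lower in members of the pool, of 26 quiescence and naive genes 6 were lower and 0 higher, and of 29 type 17 identity genes 2 were higher and 0 lower. The median over all genes was 0.04.

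Ccl5 was held by few cells. All 926 Ccl5 UMIs of members of the negative-labelled library lay in 29 of 346 cells (8.38%, 5.68 to 11.8), and 99.1% of them in 21 cells with at least 3. Those 29 cells, singled out after their values were seen, had Sox13 at 40.1 UPM, Cd163l1 at 447 UPM and Ly6c2 at 710.0 UPM, against 138, 1104 and 0.728 UPM in the 317 members without a Ccl5 UMI. They also held Lef1, a gene of naive and memory T cells, at 200.4 UPM. Members with only 1 of the 3 chain-gate genes, 31 cells, held 82.0% of the Ccl5 UMIs. In the pool 2 of 232 members held a Ccl5 UMI. Cells with no Cd3e, Cd3d or Trdc UMI, which include innate lymphocytes, held a Ccl5 UMI in 17.97% of cases in the pool and 14.2% in the negative-labelled library. The 21 member cells held 918 Ccl5 UMIs between them.

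Without members that held a Ccl5 UMI, an alternative chosen after seeing the data, 230 members of the pool and 317 members of the negative-labelled library remained. Itgae was then 22.4-fold higher (11.5 to 49.9) in members of the pool and Ccr6 6.58-fold (3.41 to 13.9). Ly6c2 had 0 and 1 UMI, Klrd1 3 and 3 UMIs and Ccr7 3 and 3 UMIs, so none of these could be compared. Cxcl10 was still 5.74-fold lower (3.44 to 10.2) in members of the pool, Nkg7 3.27-fold (1.77 to 6.53) and Ms4a4b 3.18-fold (2.06 to 5.10). Ifng, which encodes interferon gamma, was at 5.64 UPM in members of the pool and 29.8 UPM in members of the negative-labelled library, and Tbx21, which encodes T-bet, at 10.4 and 22.6 UPM. The sort gates, the mixed sorts of the pool and the library itself cannot be told apart in these differences.

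**Figure D5:**
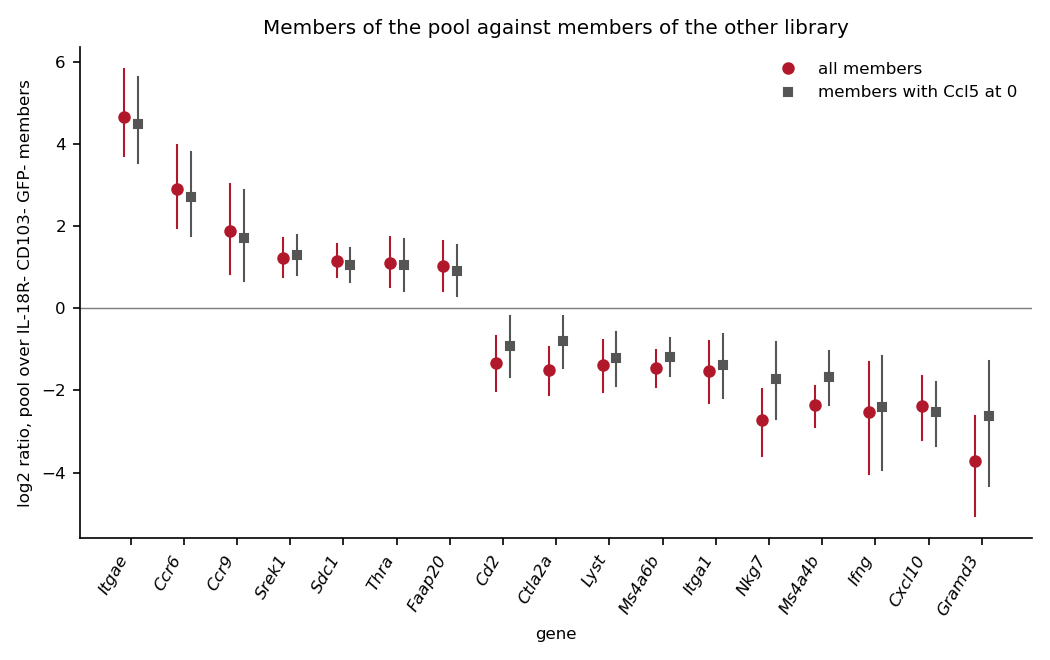
Log2 ratio of members of the IL-18R+ pool over members of the negative-labelled library (IL-18R- CD103- GFP-) (vertical axis, with 95% limits) for named genes, with all members and with members that hold no Ccl5 UMI. Itgae and Ccr6 lie above 0 in both sets (4.48 and 2.72 without Ccl5 UMIs), and Gramd3, Nkg7 and Ms4a4b lie closer to 0 once members with a Ccl5 UMI are left out.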

How the data were processed

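Lung lymphocytes of GFI1B-GFP mice were profiled in 3 libraries with Chromium Next GEM Single Cell 3' v3.1 dual index chemistry, per the labels' protocols. The deposited matrices hold UMI counts per gene and cell barcode, made by the authors with Cell Ranger 6.0.1 on mm10, per the submitters' processing notes. The labels name no replicates or animals and no cell annotation was used, and intronic counting and strand settings are not stated.

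From these counts, 78 of 32285 features that share a symbol were left out, cells were filtered and selected by the stated thresholds, and UMIs were summed per library and group and scaled to UPM. Intervals are exact 95% Poisson (ratios: conditional binomial) or Clopper-Pearson limits. Nothing was tested, since each group is 1 library. Doublets were called with Scrublet and kept in the main values. The members, markers and gene lists were chosen with earlier results of these data known. Named were the rule's genes and markers, up to 12 genes per direction and comparison with the largest ratio among called genes with at least 50 UPM, and up to 4 members per list with the largest ratios; genes called out of lists of 5 or fewer, Cdh10, Junb, Gadd45b, Txnip, Jun, Pdcd1, Tbx21 and the genes of the Ccl5 subset were chosen after their values were seen. Alternatives changed the cell filter, Trdc minimum, chain gate, doublets, depth, weighting, scaling, fold, minimum level and comparison cells. Python 3.11.15, numpy 2.4.6, scipy 1.17.1, pandas 2.3.3, scanpy 1.11.5 and matplotlib 3.10.9 were used, and the scripts were tested on simulated data. Gene positions are from GENCODE M21 on GRCm38. Some genes are not reported here.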

Additional observations from a re-analysis of the deposited data

Results flagged for a closer look

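Stmn1, which regulates microtubules in dividing cells, went opposite ways in the 2 libraries. Its log2 ratio of members over Il17a-positive cells was 2.841 in the pool and -1.392 in the negative-labelled library. In the pool members held 51 UMIs in 10 cells, 41 of them in 1 cell, against 15 UMIs in 13 Il17a-positive cells. In the negative-labelled library members held 23 UMIs in 12 cells, against 92 UMIs in 20 Il17a-positive cells, of which 1 cell held 43. The difference between the libraries was not tested.

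Cxcl2, a neutrophil-attracting chemokine, also went opposite ways. Its log2 ratio of members over Cxcr3-positive cells was -1.642 in the pool and 1.009 in the negative-labelled library. In the pool members held 28 UMIs in 6 cells, against 34 UMIs in 5 Cxcr3-positive cells, with up to 27 in 1 cell. In the negative-labelled library members held 72 UMIs in 20 cells, against 52 UMIs in 12 Cxcr3-positive cells, with up to 25 in 1 cell. This difference was not tested either.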

How the results depend on the processing

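Counts of called genes moved with the settings. Of the single-gene values under all alternatives 3150 moved less than their counting interval, 525 moved further and 5 reversed. The 3150 include 274 values at 1.5-fold and 274 with no minimum level, settings that change only the calls and could not move a ratio. Against cells outside every gamma delta group 84 values moved further and 118 did not. Against other cells with a Cd3e or Cd3d UMI 77 moved further, 1 reversed and 119 did neither. Against all other kept cells the count of 71 became 24 when those cells had to hold a Cd3e or Cd3d UMI and 348 with cells outside every gamma delta group. At 1.5-fold the counts were 212 against all other cells, 30 against Il17a-positive cells (5 in the report), 105 against Cxcr3-positive cells (19) and 642 between libraries (140). With no minimum level they were 3382, 219, 221 and 845 in that order. Leaving out members with a Trbc1, Trbc2, Cd79a, Lyz2 or Il1rl1 UMI and Scrublet calls left 15 and 18 members and gave 294, 240, 240 and 674. Thinning to 2000 UMIs gave 13 against Il17a-positive cells, 30 against Cxcr3-positive cells and 418 between libraries, and cells with at least 4000 UMIs gave 8 against Il17a-positive and 31 against Cxcr3-positive cells. Il17a-positive cells with at least 3 Il17a UMIs, chosen after seeing the data, gave 9. The chain gate on both sides gave 6 against Cxcr3-positive cells and reversed the log2 ratios of Ctla2a (0.4498 in the pool, 0.3616 in the negative-labelled library) and Nkg7 (0.3567 and 0.1432). Cxcl2 reversed to 0.06683 in the negative-labelled library against other cells with a Cd3e or Cd3d UMI. Without the chain gate members were 18.32% and 28.84% of kept cells, and among cells with at least 4000 UMIs 15.85% in the negative-labelled library. The causes were not tested. TMM and median of ratios scaling shifted all genes by between -0.02 and 0.06 (log2). No paired analysis was possible because replicate numbers are absent from the labels; contrasts of members with other cells were made within each of the 2 libraries. Depth limits the smallest group most, the 82 gated Cxcr3-positive cells of the pool, where 3 UMIs equal 8.18 UPM, and neither animals nor libraries are replicated.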
